A study of Mus musculus with 13 samples.

Results

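The genes described here are the chemokines and chemokine receptors of the mouse, 55 of the 54513 gene symbols in the count table. They were chosen by symbol and summed count, with earlier results of these data known. Their symbols have Ccl, Cxcl, Ccr, Cxcr or Ackr followed by a digit, begin with Cx3c, or are Xcl1 or Xcr1. Each has a summed count above 10 over the 13 libraries. Of 64 matching symbols, 9 did not exceed that sum. Ccl1, Cxcl11 and Ccr1l1 lay just outside with 10 counts each, and the lowest sum inside was the 19 counts of Ccr10. The members comprised 33 ligands (19 of the CC type, 12 of the CXC type, Cx3cl1 and Xcl1), 18 signalling receptors and 4 atypical receptors.

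Chemokines are small secreted proteins that guide leukocytes, and each binds 1 or more G protein-coupled receptors on the cells that migrate towards it. Atypical receptors bind chemokines without G protein signalling, and remove or transport them. In injured lung, epithelium, macrophages, fibroblasts and endothelium can all release chemokines, and monocytes, neutrophils, dendritic cells and lymphocytes carry most of the signalling receptors.

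Total RNA was sequenced from archived (formalin-fixed, paraffin-embedded) lung tissue of male C57Bl/6 mice aged 7 to 8 weeks. All groups were sampled at day 21, from 10 µm sections and with 8 ng of RNA per library. The bleomycin group of batch 1 held replicates 5 to 8 and that of batch 2 replicates 1 to 4. The saline group held replicates 1 to 5, all labelled batch 1. Bleomycin is a DNA-damaging drug used widely to produce lung fibrosis in mice, and the comparison asks how the lung transcriptome differs after it. The labels name no genetic change in any group. They do not say what a batch stands for or whether libraries come from different animals, and a p-value here reflects the variation among these libraries, which may be technical. The title of bleomycin replicate 8 says control, while its treatment label and library name say bleomycin. It was kept by its treatment label, and the member calls in batch 1 and between the bleomycin batches that its removal changed are given both ways.

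Total counts were 21727502 to 28885129 per library in batch 1 bleomycin, 6337147 to 12982422 in batch 2 bleomycin and 9527580 to 26043735 in the saline libraries, and the 55 members together took 8675 to 61528 counts. Levels are CPM, the usual counts scaled to a library's total and normalization factor, and levels of different genes are compared only as CPM per kb of exon. Changes are log2 differences, bleomycin minus saline, with their standard error (SE) from edgeR's quasi-likelihood fit over 20468 genes, and a gene passed at a Benjamini-Hochberg adjusted p under 0.05. Of the members, 51 were tested. Ccr10, Cxcl3, Cxcr1 and Xcl1 were too low, with summed counts of 19, 94, 44 and 36.

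In batch 1, 33 of the 51 tested members rose after bleomycin, 1 fell and 17 did not pass. That is 66.7% of the tested members past the threshold and 64.7% upward, against 30.9% of all tested genes, 17.5% upward and 13.4% downward. The median log2 change was 1.43 over the tested members and 0.03 over all tested genes. For 26 members every bleomycin library lay above every saline library, and for 1 every one lay below, where 14% and 11.3% of all tested genes did so. Without bleomycin replicate 8, 32 members passed, where 26.6% of all tested genes did. Fewer cells of a type and less RNA per cell cannot be told apart in such whole-tissue samples, and the same holds for more cells and more RNA.

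**Figure D1:**
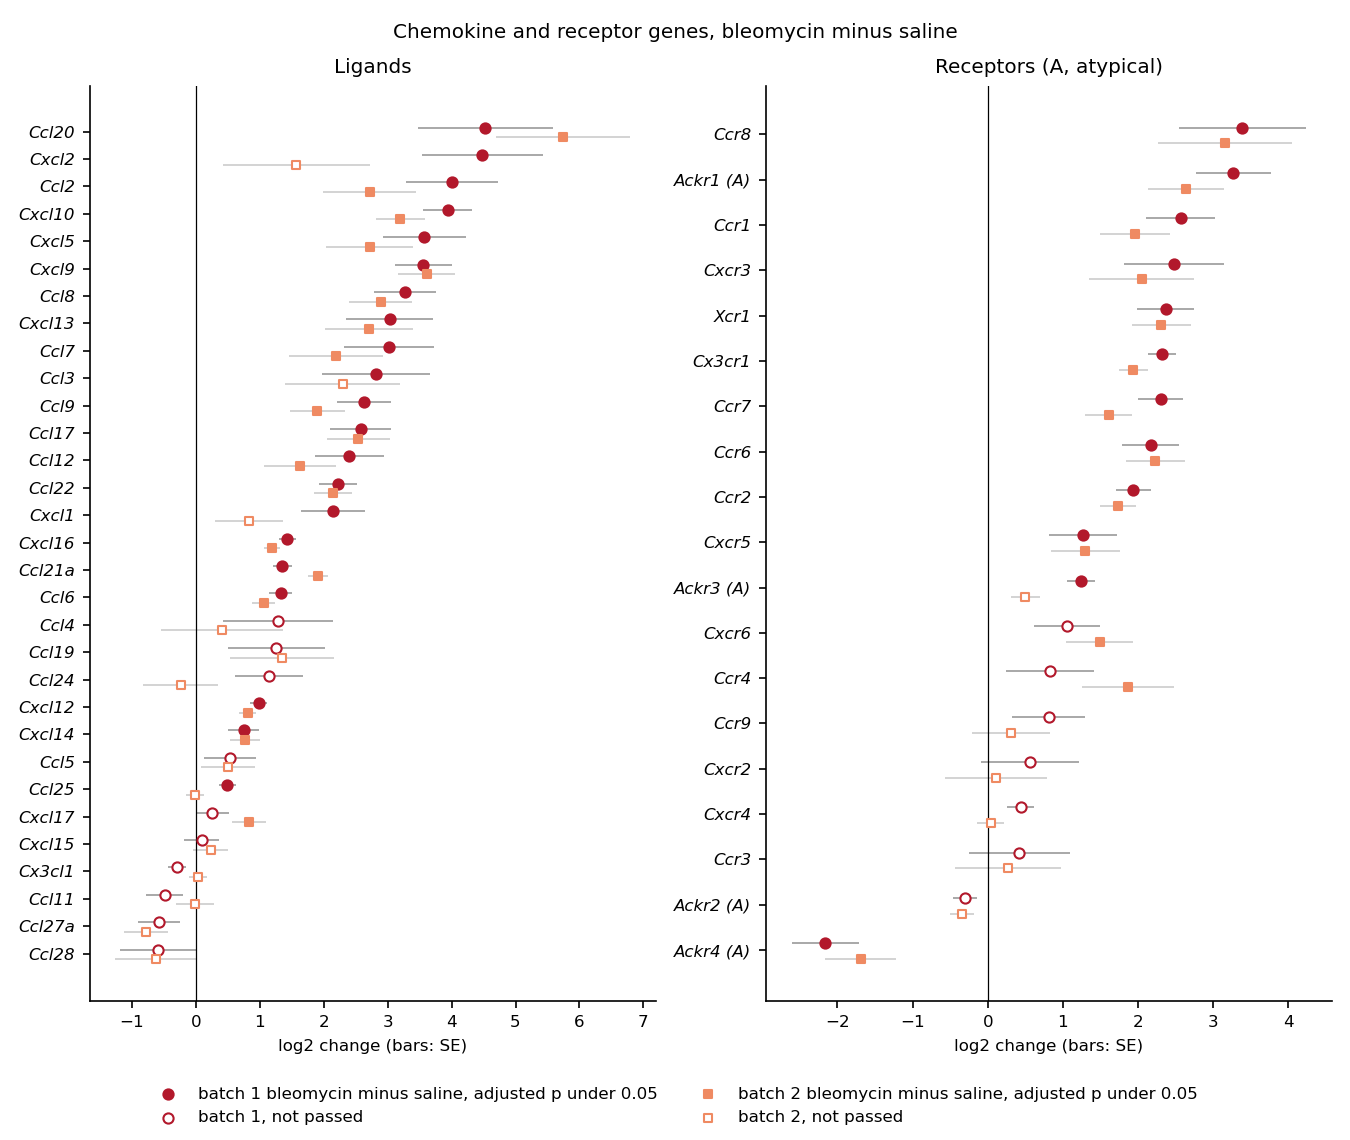
Log2 change (x axis) of 50 tested members, ligands left and receptors right, with SE as bars, for batch 1 bleomycin minus saline (circles) and batch 2 bleomycin minus saline (squares). Filled symbols passed the test. In batch 1, 32 of them lie on the positive side with filled circles and Ackr4 alone lies on the negative side with one. Both comparisons use the same 5 saline libraries.

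The ligands of Ccr2, the receptor that brings monocytes out of the blood, rose in batch 1, and Ccl2 was among the members with the largest changes. Ccl2, the main monocyte attractant, had 2.88, 25.7, 6.65 and 15.8 CPM in batch 1 bleomycin replicates 5 to 8, against 0.81, 0.464, 0.511, 1.26 and 0.883 CPM in saline replicates 1 to 5. The groups did not overlap, but the bleomycin libraries differed among themselves far more than the saline ones, with replicate 5 lowest and replicate 6 highest. The log2 change of Ccl2 was 4.00 (SE 0.72, adjusted p = 0.00141). Ccl7, encoded beside Ccl2 in the same cluster, had 1.65, 14, 3.86 and 6.18 CPM in the bleomycin libraries against 0.232 to 1.63 CPM in saline (log2 change 3.02, SE 0.71, adjusted p = 0.00613). Here the lowest bleomycin library barely exceeded the highest saline one. Ccl12, a mouse ligand of the same receptor, had 1.15, 13.2, 6.65 and 7.23 CPM against 0.88 to 1.77 CPM in saline. Bleomycin replicate 5 fell inside the saline range and the other 3 above it, and Ccl12 passed with a log2 change of 2.40 (SE 0.54, adjusted p = 0.00393) in edgeR but not in limma-voom (adjusted p = 0.0807). In batch 2 bleomycin, Ccl2 had 13.1, 2.45, 4.14 and 1.76 CPM in replicates 1 to 4, with replicate 1 well above the other 3.

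Ccl8, which in mice binds Ccr8, had 2.72, 20, 17.8 and 23.9 CPM in batch 1 bleomycin and 15.9, 11, 12.8 and 9.67 CPM in batch 2, against 0.938, 1.86, 1.97, 2.26 and 1.32 CPM in saline. All 8 bleomycin libraries were above the 5 saline ones, and replicate 5 came closest to them. The log2 change in batch 1 was 3.27 (SE 0.49, adjusted p = 0.000316).

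The ligands of Cxcr3, which are induced by interferon and attract activated T cells, rose in both batches. Cxcl10 had 3.87, 6.11, 6.22 and 4.31 CPM in batch 1 bleomycin and 5.31, 2.65, 1.86 and 2.64 CPM in batch 2, against 0.256, 0.464, 0.292, 0.251 and 0.441 CPM in saline. The bleomycin groups were both clear of saline, and the batch 1 log2 change was 3.94 (SE 0.38, adjusted p = 3.03e-06). Cxcl9 had 3.54, 9.86, 12.8 and 10.2 CPM in batch 1 bleomycin and 11.6, 8.98, 8.28 and 8.79 CPM in batch 2, against 0.767, 1.62, 0.511, 1.01 and 0.147 CPM in saline (batch 1 log2 change 3.56, SE 0.45, adjusted p = 3.94e-05). Apart from replicate 5, the bleomycin libraries of both batches lay close together. The third ligand of this receptor, Cxcl11, is annotated as a polymorphic pseudogene and, with 10 counts, did not exceed the counting minimum.

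Cxcl13, which draws B cells into lymphoid follicles, had 7.04, 33.5, 14.6 and 53.3 CPM in batch 1 bleomycin and 51.3, 15.1, 7.95 and 13.8 CPM in batch 2, against 3.92, 3.94, 3.28, 3.9 and 1.47 CPM in saline. The groups did not overlap, with a wide range in both bleomycin groups and a narrow one in saline. The log2 change in batch 1 was 3.03 (SE 0.68, adjusted p = 0.00668).

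The 250 bases before the annotated start sites of Cxcl9, Cxcl10, Ccl8 and Cxcl13, which rose, are shown beside those of Cxcl15, the most abundant ligand, which did not pass, so that promoters of both kinds can be read together. They come from RefSeq on GRCm38.p6, at chr5:92328080-92328329 (minus strand) for Cxcl9, chr5:92348890-92349139 (minus) for Cxcl10, chr11:82114935-82115184 (plus) for Ccl8, chr5:95956689-95956938 (plus) for Cxcl13 and chr5:90794284-90794533 (plus) for Cxcl15, while the counts were made on mm39. Each is written 5′ to 3′ on the gene's strand. Capitals mark matches on either strand to the NF-kB pattern (GGGA, any 4 bases, CC), the interferon-response pattern (GAAA, any 2 bases, GAAA), the STAT pattern (TTC, any 3 bases, GAA), the AP-1 pattern TGANTCA and the TATA box TATAAA.
Cxcl9: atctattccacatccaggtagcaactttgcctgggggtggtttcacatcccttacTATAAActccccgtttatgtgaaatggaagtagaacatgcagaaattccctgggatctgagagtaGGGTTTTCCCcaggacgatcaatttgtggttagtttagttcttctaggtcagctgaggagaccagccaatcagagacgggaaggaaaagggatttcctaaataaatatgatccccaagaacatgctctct
Cxcl10: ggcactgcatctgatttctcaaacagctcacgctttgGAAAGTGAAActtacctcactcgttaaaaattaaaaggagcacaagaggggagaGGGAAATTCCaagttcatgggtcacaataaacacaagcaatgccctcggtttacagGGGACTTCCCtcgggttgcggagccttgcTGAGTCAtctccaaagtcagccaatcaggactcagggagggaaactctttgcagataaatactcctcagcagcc
Ccl8: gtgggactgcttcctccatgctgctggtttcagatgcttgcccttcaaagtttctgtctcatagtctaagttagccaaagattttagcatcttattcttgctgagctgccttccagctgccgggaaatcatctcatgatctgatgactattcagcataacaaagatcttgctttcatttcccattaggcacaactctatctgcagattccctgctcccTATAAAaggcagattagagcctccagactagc
Cxcl13: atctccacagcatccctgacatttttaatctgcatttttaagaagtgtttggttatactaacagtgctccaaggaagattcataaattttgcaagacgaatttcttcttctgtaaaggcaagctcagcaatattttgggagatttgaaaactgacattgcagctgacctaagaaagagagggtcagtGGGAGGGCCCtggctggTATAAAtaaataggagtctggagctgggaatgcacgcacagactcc
Cxcl15: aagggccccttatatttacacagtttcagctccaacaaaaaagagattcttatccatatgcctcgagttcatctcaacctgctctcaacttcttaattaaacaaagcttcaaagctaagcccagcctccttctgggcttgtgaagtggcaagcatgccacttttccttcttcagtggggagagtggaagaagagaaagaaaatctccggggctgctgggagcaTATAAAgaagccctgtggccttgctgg
Cxcl10 held a pair of NF-kB matches, an interferon-response match and an AP-1 match. Cxcl9 and Cxcl13 each held 1 NF-kB match and 1 TATA match, and Ccl8 and Cxcl15 a TATA match alone. The TATA match of Cxcl9 lay 195 to 190 bases before the start site. Those of Ccl8, Cxcl13 and Cxcl15 lay nearer, at 32 to 27, 46 to 41 and 27 to 22 bases. Of the members, 42 had an entry in the promoter table, and the rest, among them Ccl2 and Cxcl5, had none and were not searched. The NF-kB pattern was found in 17 of these 42 (40.5%) and in 19.7% of 27025 genes with an entry, and a looser form of it (GGG, any 5 bases, CC) in 57.1% and 48.7%. The letters TATAAA were found, at any position in the 250 bases, in 13 members (31%) and 14.3% of all genes. The interferon-response pattern was found in 3 (7.14%) and 3.46%, the STAT pattern in 3 (7.14%) and 8.13%, and AP-1 in 5 (11.9%) and 7.82%. A match describes these letters and is not a binding site shown by data.

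Cxcl1, Cxcl2 and Cxcl5, ligands of the main neutrophil receptor Cxcr2, averaged under 1 CPM in saline and rose in batch 1. Cxcl5, a neutrophil attractant of lung epithelium, had 1.15, 4.69, 3.23 and 2.68 CPM in batch 1 bleomycin and 1.66, 0.612, 1.69 and 2.64 CPM in batch 2, against 0.17, 0.232, 0.584, 0.126 and 0 CPM in saline. No bleomycin library overlapped saline, and the batch 1 log2 change was 3.57 (SE 0.65, adjusted p = 0.000743). Cxcl1 had 1.4, 4.17, 1.34 and 4.47 CPM in batch 1 bleomycin against 0.377 to 1.18 CPM in saline (log2 change 2.14, SE 0.50, adjusted p = 0.0043). In batch 2 its 0.586 to 1.86 CPM overlapped saline and did not pass. Cxcl2 had 200 counts over the batch 1 bleomycin libraries and 6 over saline, a ratio of scaled counts of 28.8, and passed with an adjusted p of 0.00223. Its exact 95% interval, 9.57 to 142, was computed on read pairs, since counts seem to include both mates, and covers counting error only. In batch 2, Cxcl2 had 8 counts and a ratio of 3.44 (0.582 to 23.5). Cxcl3, too low for the test, had 78 counts in batch 1 bleomycin, 12 in batch 2 and 4 in saline. Its ratio of scaled counts to saline was 16.8 in batch 1 (interval of the same kind 4.36 to 144) and 7.74 in batch 2 (1.38 to 78.4).

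Cxcl15, a lung-specific neutrophil attractant of mouse airway and alveolar epithelium, was the most abundant ligand in every group and showed no shift. It had 577, 426, 456 and 250 CPM in batch 1 bleomycin, against 441, 449, 463, 315 and 335 CPM in saline. The ranges overlapped fully, and the log2 change was 0.09 (SE 0.27, adjusted p = 0.828).

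Of the ligands of Ccr1, a receptor of monocytes and neutrophils, Ccl6, Ccl9 and Ccl3 rose and Ccl5 did not pass. Ccl6 had 167, 319, 268 and 223 CPM in batch 1 bleomycin and 278, 194, 176 and 161 CPM in batch 2, against 85.3, 92.9, 115, 104 and 89.8 CPM in saline. Every bleomycin library exceeded the highest saline one (batch 1 log2 change 1.33, SE 0.18, adjusted p = 0.000128). Ccl9, its neighbour in the genome and like it a myeloid chemokine of rodents, had 34, 122, 94.3 and 88.2 CPM in batch 1 bleomycin against 11.3 to 16.4 CPM in saline (log2 change 2.63, SE 0.43, adjusted p = 0.00101). Ccl3, an inflammatory macrophage chemokine, had at most 2.19 CPM and passed at a log2 change of 2.82 (SE 0.85, adjusted p = 0.0188), but not without bleomycin replicate 8 (adjusted p = 0.0623) nor in limma-voom (0.0939). Ccl4, at 0.165 to 1.77 CPM in batch 1 bleomycin and 0 to 1.13 CPM in saline, did not pass. Ccl5, a T cell chemokine, had 2.88, 10.1, 10.9 and 5.28 CPM against 7.76, 3.25, 7.99, 3.77 and 2.21 CPM in saline. The groups overlapped and Ccl5 did not pass (log2 change 0.53, SE 0.41, adjusted p = 0.36).

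**Figure D2:**
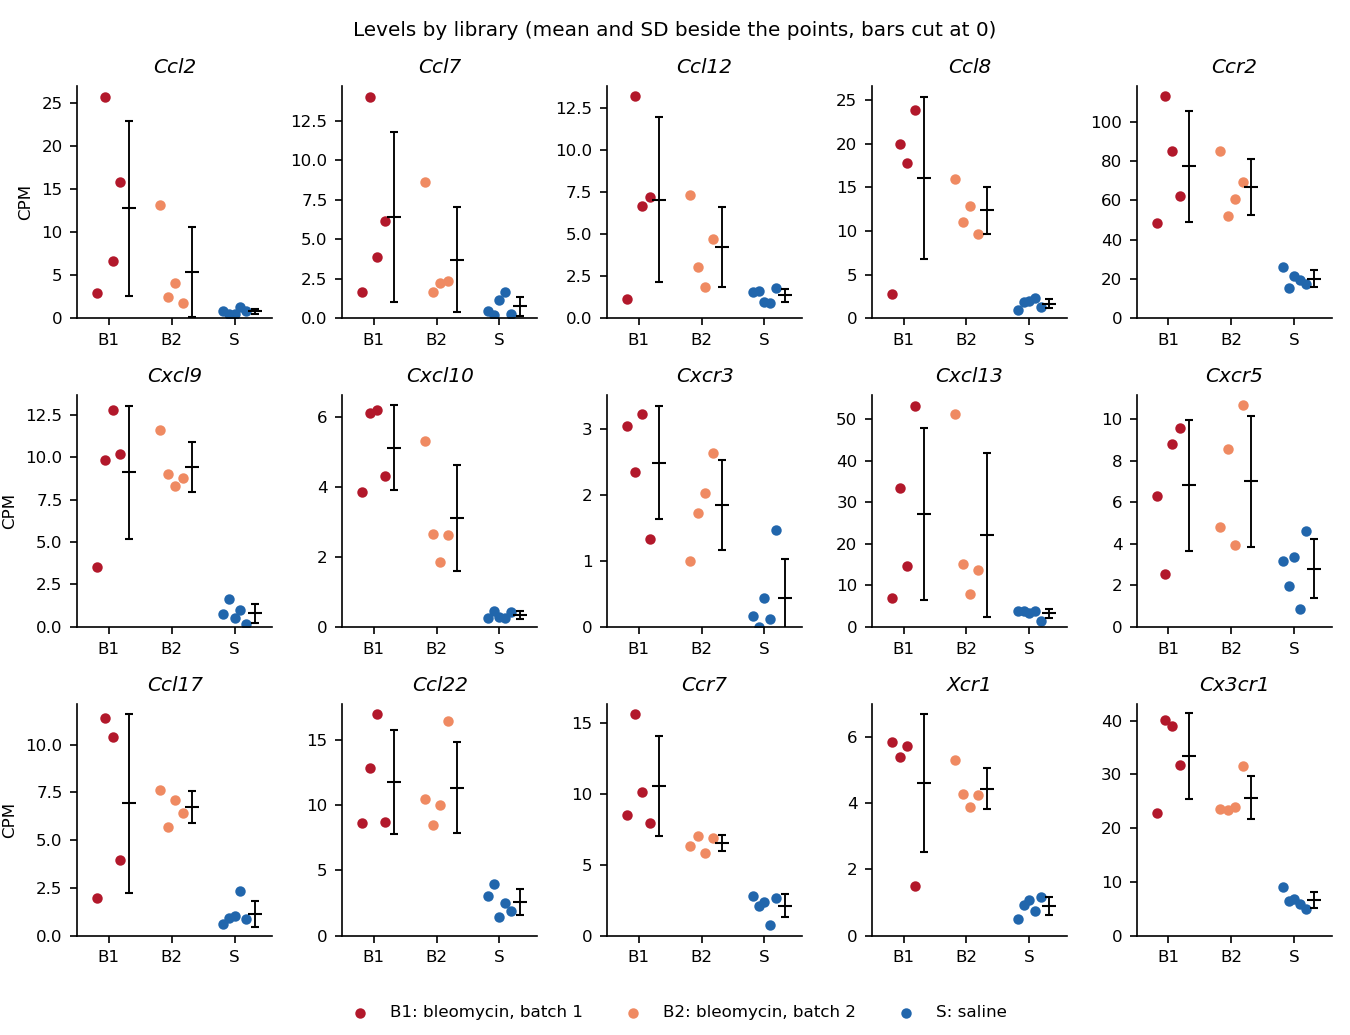
CPM (y axis, from 0) of 15 members in each library of batch 1 bleomycin (B1), batch 2 bleomycin (B2) and saline (S), libraries in replicate order, with the mean and SD beside the points and lower bars cut at 0. For Ccl2, saline lies at 0.464 to 1.26 CPM and batch 1 bleomycin at 2.88 to 25.7 CPM, with the lowest batch 1 point in replicate 5.

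Ccl17 and Ccl22, released by dendritic cells to attract Ccr4-bearing T cells, had log2 changes of 2.58 (SE 0.48, adjusted p = 0.000892) and 2.22 (SE 0.30, adjusted p = 5.75e-05). Ccl17 had 1.98 to 11.4 CPM in batch 1 bleomycin and 5.71 to 7.64 CPM in batch 2, against 0.597 to 2.33 CPM in saline, so only replicate 5 reached the saline range. Ccl22 had 8.65 to 17 CPM in batch 1 bleomycin against 1.46 to 3.94 CPM in saline, with no overlap. Ccl21a, the lymphatic signal for cells that carry Ccr7, had 51.5, 35.1, 52.5 and 69.3 CPM in batch 1 bleomycin and 85.4, 71.5, 71.1 and 78.2 CPM in batch 2, against 19.6, 18, 24, 20.6 and 19.5 CPM in saline. All bleomycin libraries were above saline, with batch 2 above batch 1, and its batch 1 log2 change was 1.35 (SE 0.15, adjusted p = 1.12e-05). Near-identical copies of Ccl21a exist, so its counts are uncertain. Ccl19, the other Ccr7 ligand, had at most 2.05 CPM and did not pass (log2 change 1.26, SE 0.76, adjusted p = 0.226), though it did without saline replicate 4 (adjusted p = 0.0256). Ccl20, the ligand of Ccr6, had 69 counts in batch 1 bleomycin, 52 in batch 2 and 2 in saline. Its ratio of scaled counts to saline was 29.8 in batch 1 (exact 95% interval on read pairs 4.92 to 1193, counting error only). In batch 2, where total counts were lower, the ratio was 67.1 (11 to 2751). Ccl20 passed in batch 1 with an adjusted p of 0.00395.

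Ligands of resting tissue that passed had log2 changes of 0.49 to 1.43 in batch 1. Cxcl12, the stromal ligand of Cxcr4, had 251, 314, 294 and 299.9 CPM in batch 1 bleomycin and 321, 205, 231 and 276 CPM in batch 2, against 173, 135, 148, 118 and 160 CPM in saline, all bleomycin libraries being above saline (batch 1 log2 change 0.98, SE 0.13, adjusted p = 5.73e-05). Cxcl16, a membrane-bound ligand of Cxcr6, had 85.8 to 116 CPM in batch 1 bleomycin against 29.7 to 42.7 CPM in saline (log2 change 1.43, SE 0.13, adjusted p = 1.77e-06). Cxcl14, a chemokine of resting epithelia, had 44.2, 89.4, 72.6 and 98.8 CPM in batch 1 bleomycin and 46.1, 44.3, 52.9, 39.3 and 44 CPM in saline. Replicate 5 lay inside the saline range, and the log2 change of 0.75 (SE 0.24, adjusted p = 0.0287) did not pass without bleomycin replicate 8 (0.57, adjusted p = 0.116). It passed in 6 of the 13 fits that left out 1 library. Ccl25, the thymic and gut ligand of Ccr9, had 24.3, 21, 21 and 18.8 CPM in batch 1 bleomycin and 13 to 17.1 CPM in batch 2, against 13.5 to 18.4 CPM in saline. It rose in batch 1 (log2 change 0.49, SE 0.13, adjusted p = 0.0111), and its exons overlap those of Elavl1 on the other strand.

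Ligands that did not pass in batch 1 included Ccl11, the eosinophil attractant, with 4.71 to 6.32 CPM in bleomycin and 5.11 to 12.1 CPM in saline (log2 change -0.49, SE 0.29, adjusted p = 0.219). Cx3cl1, the membrane-bound ligand of Cx3cr1 on endothelium and epithelium, had 21.2, 21.3, 20.5 and 14.7 CPM in batch 1 bleomycin and 24.4, 27.6, 24.4, 18.4 and 25.2 CPM in saline. The groups overlapped, and its log2 change of -0.30 (SE 0.14, adjusted p = 0.111) passed without saline replicate 4 (adjusted p = 0.0305). Cxcl17, a mucosal chemokine, had 7.83 to 19.1 CPM in batch 1 bleomycin and 15.3 to 29 CPM in batch 2, against 7.73 to 13.7 CPM in saline, and passed in batch 2 alone (log2 change 0.83, adjusted p = 0.0269). Batch 2 bleomycin minus batch 1 bleomycin was 0.57 for Cxcl17 and did not pass (adjusted p = 0.356). Ccl24, Ccl27a and Ccl28 had log2 changes of 1.14, -0.58 and -0.59 in batch 1 and did not pass, except Ccl24 without bleomycin replicate 5 (adjusted p = 0.0426).

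Among the signalling receptors, 10 of 16 tested rose and none fell. Ccr2, the monocyte receptor, had 48.5, 113, 85.3 and 62.2 CPM in batch 1 bleomycin and 85.4, 52.3, 60.6 and 69.6 CPM in batch 2, against 26.3, 15.4, 21.7, 19.7 and 17.2 CPM in saline. It was clear of saline in every bleomycin library (batch 1 log2 change 1.94, SE 0.23, adjusted p = 5.93e-05). Cx3cr1, carried by patrolling monocytes and by macrophages, had 22.9, 40.1, 39 and 31.7 CPM in batch 1 bleomycin and 23.6, 23.3, 24 and 31.6 CPM in batch 2, against 9.08, 6.49, 6.75, 5.91 and 5 CPM in saline. No bleomycin library overlapped saline, and the batch 1 change was 2.32 (SE 0.19, adjusted p = 1.18e-06). Ccr1 had 8.82 to 42.9 CPM in batch 1 bleomycin against 2.94 to 5.55 CPM in saline (log2 change 2.57, SE 0.46, adjusted p = 0.00131).

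Ccr7, which takes dendritic cells and T cells to lymph nodes, had 8.49, 15.6, 10.1 and 7.96 CPM in batch 1 bleomycin and 5.83 to 7.04 CPM in batch 2, against 0.754 to 2.77 CPM in saline (batch 1 log2 change 2.30, SE 0.30, adjusted p = 4.81e-05). Xcr1, the receptor of cross-presenting dendritic cells, had 5.85, 5.38, 5.71 and 1.5 CPM in batch 1 bleomycin and 3.89 to 5.31 CPM in batch 2, against 0.511 to 1.18 CPM in saline. Here the lowest batch 1 library was replicate 8, still above saline (log2 change 2.37, SE 0.38, adjusted p = 0.000258). Ccr6, on B cells and some T cells, had 4.2 to 6.1 CPM in batch 1 bleomycin against 0.377 to 2.32 CPM in saline (log2 change 2.17, SE 0.38, adjusted p = 0.000508). Cxcr3, on activated T cells, had 3.05, 2.36, 3.23 and 1.34 CPM against 0 to 1.47 CPM in saline, where the highest saline library overlapped the lowest bleomycin one (log2 change 2.48, SE 0.67, adjusted p = 0.0108). Cxcr5, on follicular B cells, had 6.3, 2.57, 8.82 and 9.59 CPM in batch 1 bleomycin against 0.88 to 4.63 CPM in saline. Its change of 1.27 (SE 0.45, adjusted p = 0.044) did not pass without bleomycin replicate 8 (adjusted p = 0.13). It passed in 7 of 19 alternatives and in 5 of the 13 of them that left out 1 library, and its exons overlap those of Bcl9l on the other strand. Ccr8, on some T cells and macrophages, had 110 counts in batch 1 bleomycin, 32 in batch 2 and 8 in saline. Its ratio of scaled counts to saline was 11.9 in batch 1 (exact 95% interval on read pairs 4.38 to 45.1, counting error only) and 10.3 in batch 2 (3.33 to 42.4). Ccr8 passed in batch 1 with an adjusted p of 0.00658, but its lowest batch 1 library, at 0.124 CPM, lay inside the saline range of 0 to 0.294 CPM.

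The receptors that did not pass included Cxcr4 and Cxcr2. Cxcr4, the receptor of Cxcl12 on many leukocytes and the most abundant signalling receptor per kb in saline, had 30.2, 40.3, 30.9 and 24.7 CPM in batch 1 bleomycin and 17.6, 24.6, 21.1 and 32.2 CPM in batch 2, against 21.8, 29.3, 25.3, 19.5 and 20.7 CPM in saline. The groups overlapped, and the batch 1 change was 0.44 (SE 0.18, adjusted p = 0.0729), although limma-voom (adjusted p = 0.0335) and the fit without bleomycin replicate 1 (adjusted p = 0.0493) put it past the threshold. Cxcr2 had 2.88, 10.7, 4.25 and 6.18 CPM in batch 1 bleomycin, against 3.84, 0.232, 7.81, 6.03 and 1.91 CPM in saline. Saline alone spanned a wide range, and the log2 change was 0.56 (SE 0.65, adjusted p = 0.552). Cxcr6, on tissue-resident T cells, had 1.1 to 4.28 CPM in batch 1 bleomycin against 1.13 to 2.06 CPM in saline (log2 change 1.05, SE 0.44, adjusted p = 0.081), and it passed without bleomycin replicate 8 (adjusted p = 0.0317). Ccr3, Ccr4 and Ccr9 had log2 changes of 0.42, 0.83 and 0.81 and did not pass, except Ccr9 in limma-voom (adjusted p = 0.0417).

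Of the 4 atypical receptors, Ackr1 and Ackr3 rose in batch 1, Ackr4 fell and Ackr2 did not pass. Ackr4, which removes Ccl19, Ccl21 and Ccl25, was the single member that fell. It had 1.65, 0.313, 0.866 and 1.38 CPM in batch 1 bleomycin and 0.996, 1.43, 1.35 and 2.05 CPM in batch 2, against 5.88, 3.48, 2.23, 6.41 and 5.59 CPM in saline. Every bleomycin library was below every saline one, and the log2 change was -2.16 in batch 1 (SE 0.45, adjusted p = 0.00199) and -1.69 in batch 2 (adjusted p = 0.0123). In limma-voom, no member was called lower in batch 2 against saline. Its exons overlap those of Acad11 on the other strand. Ackr1, which carries chemokines across venular endothelium and binds them on red cells, had 2.64, 2.29, 5.16 and 3.29 CPM in batch 1 bleomycin and 3.49, 2.45, 1.01 and 1.76 CPM in batch 2, against 0.0852, 0.464, 0.292, 0.503 and 0.441 CPM in saline. All bleomycin libraries were above saline (batch 1 log2 change 3.27, SE 0.50, adjusted p = 0.000161), and reads could be shared with Cadm3, which overlaps it on the same strand. Ackr3, the scavenger of Cxcl12, had 38.1, 55.7, 53.6 and 46.1 CPM in batch 1 bleomycin and 45.2, 23.2, 25.2 and 22.6 CPM in batch 2, against 21.1, 18.3, 19.4, 24.8 and 18.3 CPM in saline. It rose in batch 1 (log2 change 1.24, SE 0.19, adjusted p = 0.000156), while 3 of the 4 batch 2 libraries lay at or near saline and it did not pass there (0.50, adjusted p = 0.0607). Ackr2, a scavenger of inflammatory CC chemokines, had 18.2 to 34.5 CPM in batch 1 bleomycin against 31.4 to 40.5 CPM in saline and did not pass (log2 change -0.30, SE 0.16, adjusted p = 0.159).

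**Figure D3:**
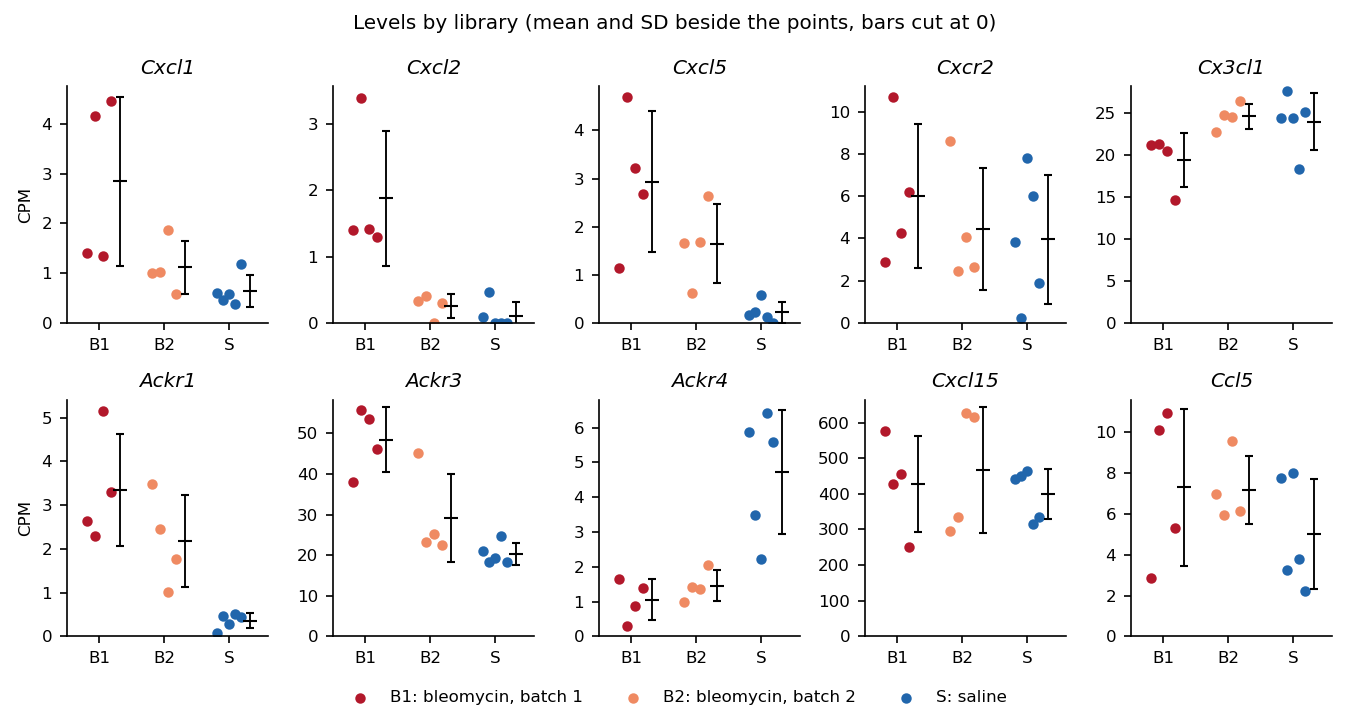
CPM (y axis, from 0) of 10 members in each library of batch 1 bleomycin (B1), batch 2 bleomycin (B2) and saline (S), with the mean and SD beside the points and lower bars cut at 0. Ackr4 lies at 0.313 to 2.05 CPM over the bleomycin libraries and at 2.23 to 6.41 CPM in saline. Cxcl15 spans overlapping ranges in all groups.

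Known ligand and receptor pairs were then read side by side. Of 39 pairs, 33 had both genes tested. In 15 both rose in batch 1, among them Ccl2, Ccl7 and Ccl12 with Ccr2, Cxcl9 and Cxcl10 with Cxcr3, Ccl8 with Ccr8, Ccl20 with Ccr6 and Cxcl13 with Cxcr5. In 9 the ligand alone passed as higher, including Cxcl1, Cxcl2 and Cxcl5 against Cxcr2, Ccl17 and Ccl22 against Ccr4, and Cxcl12 against Cxcr4. In 5 the receptor alone rose, including Ccl5 against Ccr1, Ccl19 against Ccr7 and Cx3cl1 against Cx3cr1. Ccl19 with Ackr4 had a fall in the receptor alone, Ccl21a with Ackr4 a rise in the ligand and a fall in the receptor, and Ccl11 and Ccl24 with Ccr3 no gene that passed. Without bleomycin replicate 8, both rose in 13 pairs, the ligand alone in 9 and the receptor alone in 7, since Cxcl13 with Cxcr5 and the pairs of Ccl3 lost a call and Cxcl16 with Cxcr6 gained one. Against saline in batch 2, Ccr4 also passed beside Ccl17 and Ccl22 (log2 change 1.87, adjusted p = 0.0292), and Cxcr6 beside Cxcl16. Cxcl1, Cxcl2, Ccl3, Ccl25 and Ackr3 did not pass there. Many pairs share a gene, so the pairs are not independent. In batch 1, 67.7% of the tested ligands, 62.5% of the signalling receptors and 50% of the atypical receptors rose. With such shares, many pairs have both genes higher without any matching, and whether the pairs exceed this was not tested.

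**Figure D4:**
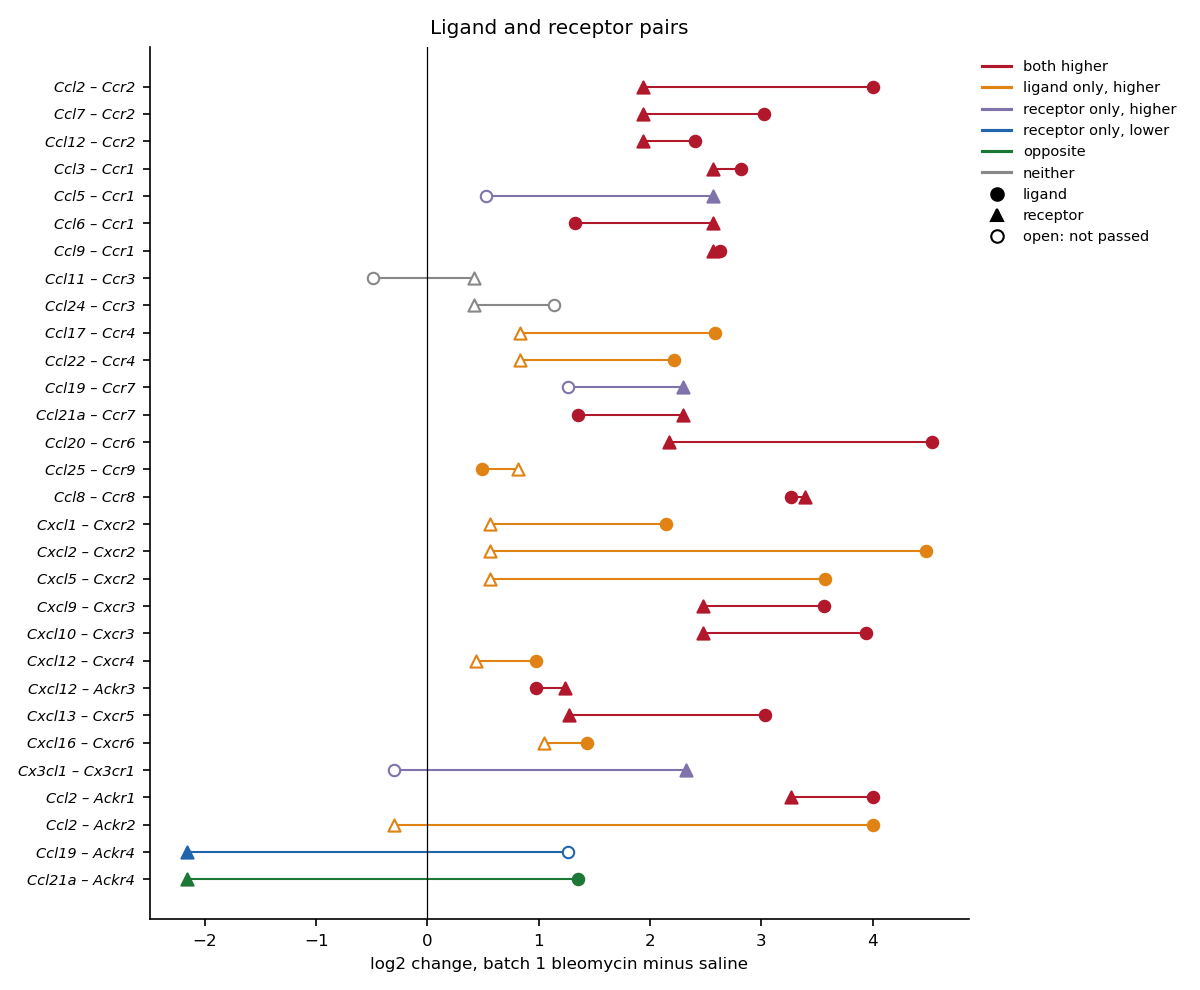
Log2 change, batch 1 bleomycin minus saline (x axis), of the ligand (circle) and the receptor (triangle) of 30 pairs (y axis). Filled symbols passed the test and colours give which of the pair did. For Cx3cl1 and Cx3cr1, the ligand lies at -0.30 and the receptor at 2.32.

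Per kb of exon, the order of the ligands in saline was led by Cxcl15 at 188 ± 32.9 CPM per kb, then Ccl6 at 54.2 ± 6.61, Cxcl14 at 24.8 ± 2.69 and Ccl21a at 23.4 ± 2.58 (mean ± SD, n = 5). Cxcl14 and Ccl21a did not differ beyond their spread. In batch 1 bleomycin the order was Cxcl15 at 201 ± 63.4 CPM per kb, Ccl6 at 136 ± 36, Ccl21a at 59.9 ± 16 and Cxcl14 at 41.7 ± 13.1 (n = 4). Of the signalling receptors, saline had Cxcr4 at 12.9 ± 2.21 CPM per kb, Ccr2 at 2.97 ± 0.623 and Cx3cr1 at 1.48 ± 0.337. Batch 1 bleomycin had Cxcr4 at 17.4 ± 3.6, Ccr2 at 11.4 ± 4.2, Ccr1 at 8.74 ± 4.94 and Cx3cr1 at 7.42 ± 1.77 CPM per kb, Ccr2, Ccr1 and Cx3cr1 lying within each other's spread.

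**Figure D5:**
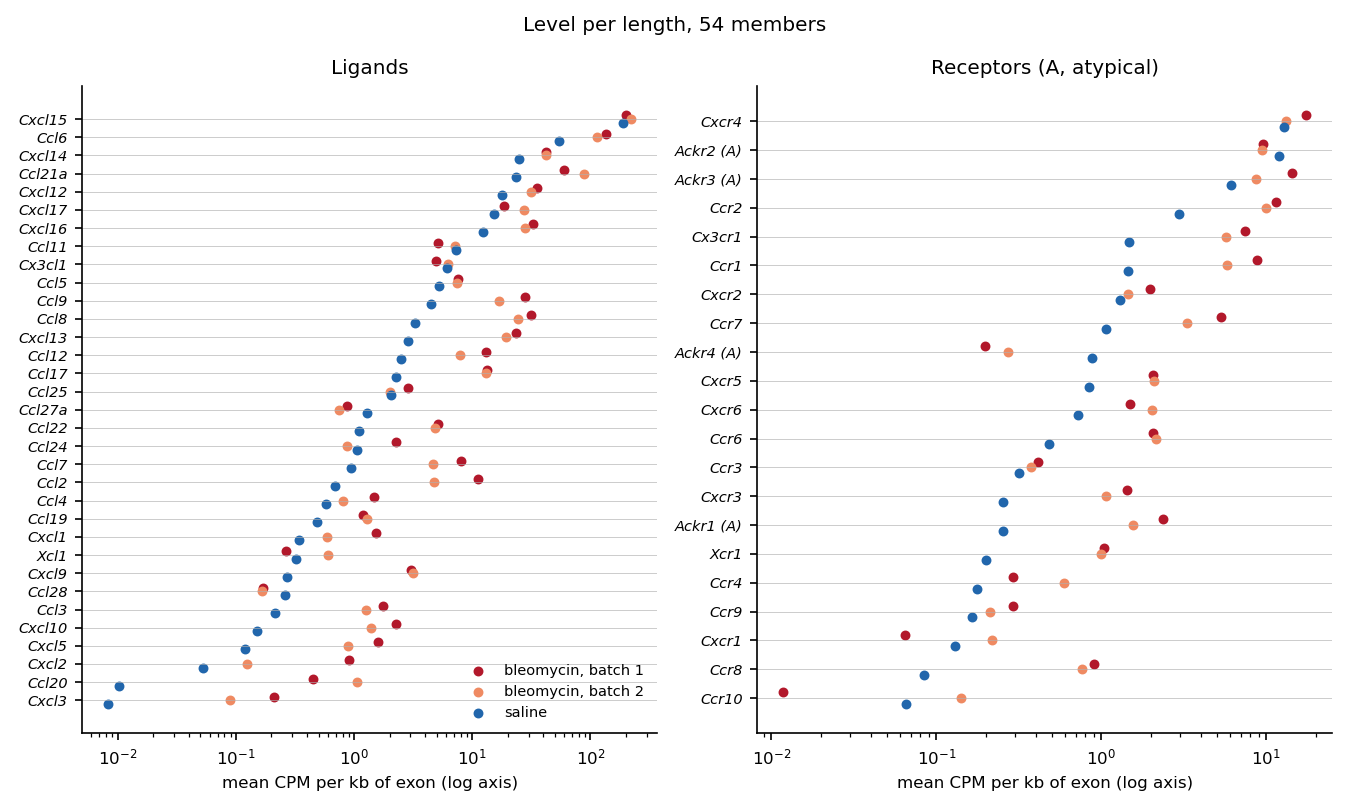
Mean CPM per kb of exon (x axis, log scale) of 54 members, ligands left and receptors right, ordered by the saline mean, for batch 1 bleomycin, batch 2 bleomycin and saline. Cxcl15 leads the ligands at 201, 220 and 188 CPM per kb in these groups, and Cxcr4 leads the signalling receptors at 17.4, 13.2 and 12.9.

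In batch 2, 31 of 51 tested members were higher than in saline, 1 was lower and 19 did not pass, where 28.9% of all tested genes passed, 15.7% upward and 13.2% downward. For 26 members all libraries of batch 2 lay above saline and for 3 all lay below, where 15.3% and 12.9% of all tested genes did so. The median log2 change was 1.57 over the members and -0.01 over all tested genes. All saline libraries are in batch 1, so batch and bleomycin cannot be told apart in that comparison, and it shares its saline libraries with the batch 1 comparison. The members whose call differed were Cxcl1, Cxcl2, Ccl3, Ccl25 and Ackr3, which passed in batch 1 alone, and Ccr4, Cxcr6 and Cxcl17, which passed in batch 2 alone. Between the batches themselves, batch 2 bleomycin minus batch 1 bleomycin, none of 51 members passed in edgeR, where 1.68% of all tested genes did. At an unadjusted p under 0.05 there were 8, of which 2 were higher in batch 2 and 6 lower. The share of all tested genes at that unadjusted threshold was not taken, so this count has nothing to be read against. Limma-voom called 0 and DESeq2 2, Ackr3 lower (adjusted p = 0.0253) and Ccl21a higher (adjusted p = 0.038). Of all tested genes, limma-voom called 0.498% and DESeq2 3.6%. For 2 members, Ccl21a and Cx3cl1, the groups did not overlap and batch 2 was above, and for 3, Ccl25, Ccr7 and Cxcl2, it was below, where 2.78% and 4.8% of all tested genes did so. In edgeR, Ackr3 differed by -0.74 (adjusted p = 0.0763), and by leaving out bleomycin replicate 1 it passed (adjusted p = 0.00273). Ccl21a differed by 0.55 (adjusted p = 0.0943) and passed without bleomycin replicate 8 (adjusted p = 0.0119), as did Ccl25, which was lower in batch 2 (adjusted p = 0.0371).

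The bleomycin libraries did not contribute equally. Replicate 5 was the lowest of its group for 31 of the 51 tested members, and for 22 of the 33 that rose. Replicate 6 was the highest for 24 and replicate 1 was the highest of batch 2 for 25. The summed level of 5 heart muscle genes was 3856 CPM in replicate 5, 571 to 1639 CPM in the rest of batch 1 bleomycin, 100 CPM in replicate 1, 934 to 2730 CPM in the rest of batch 2 and 583 to 936 CPM in saline. A list of 8 fibroblast genes summed to 2920 CPM in replicate 5, against 5407 to 8436 CPM in the other batch 1 bleomycin libraries and 1213 to 1536 CPM in saline. The part of either in the members' levels was not tested. Without replicate 5, 34 members passed in batch 1, as many as with it, where 31.6% of all tested genes did. They were not the same members, since Ccl24 gained a call (adjusted p = 0.0426 in edgeR) and Cxcr5 lost one (0.0622).

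Marker genes of leukocytes and other lung cells were read beside the members, against the 17.5% of all tested genes that rose and 13.4% that fell in batch 1. Of 12 monocyte and macrophage markers 11 rose in batch 1, and their summed level was 2174 to 2508 CPM in batch 1 bleomycin, 2645 to 3104 CPM in batch 2 and 1549 to 1910 CPM in saline. Lyz2, at means of 1463, 2112 and 1434 CPM in these groups, made up most of the sum. It was the marker that did not rise in batch 1 (log2 change 0.03, adjusted p = 0.888). Of 9 dendritic cell markers 6 rose (194 to 286, 211 to 255 and 76.6 to 94.6 CPM in the same order of groups), of 10 B cell markers 9 rose (76 to 152, 67.4 to 190 and 24.9 to 57.5 CPM), and of 12 T cell markers 6 rose (67.8 to 95.8, 64.4 to 92.1 and 22.6 to 65.9 CPM). None of these lists had a gene that fell. Of 10 neutrophil markers 6 were tested and 3 rose, with sums of 91.8 to 238, 149 to 280 and 53.9 to 96.9 CPM. The 3 that rose were Csf3r, the G-CSF receptor (log2 change 1.11, adjusted p = 0.0313), Retnlg (1.20, adjusted p = 0.035) and the collagenase Mmp8 (2.19, adjusted p = 0.023). Ltf, with 54.3 to 183 CPM in batch 1 bleomycin and 7.29 to 71.1 CPM in saline, made up much of the sums and did not pass (adjusted p = 0.114). S100a8 (log2 change 0.70, adjusted p = 0.389) and S100a9 (0.43, adjusted p = 0.544) did not pass either. In batch 2 against saline, none of the 6 tested neutrophil markers passed. The surface antigen gene Ly6g and the granule genes Camp and Mpo, too low for the test, were at or near 0 in all groups, at most 0.294 CPM. Of 5 tested lymphatic markers 3 rose (300.2 to 462, 340 to 473 and 295 to 430 CPM), and Mmrn1 was at or near 0. Genes that define lung epithelium were present in every library, and fell in part. Of 8 alveolar type 2 genes 5 fell in batch 1, and their sum was 2776 to 5494 CPM in batch 1 bleomycin, 3539 to 8834 CPM in batch 2 and 6701 to 8691 CPM in saline. Of 6 alveolar type 1 genes 4 fell, as did 4 of 6 genes of club and ciliated cells. Of 8 NK cell markers 1 fell, and of 10 markers of resident alveolar macrophages 4 fell. The part of cell numbers in the members' changes was not tested.

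Genes that act with chemokines were read from lists of their own, against the same shares of all tested genes (17.5% upward and 13.4% downward). Of 13 chemokine-related genes outside the name patterns 5 rose and 1 fell. Cd74, which pairs with MHC class II and binds the chemokine-like cytokine Mif, had 647 to 1146 CPM in batch 1 bleomycin against 242 to 343 CPM in saline (log2 change 1.47, SE 0.15, adjusted p = 3.97e-06). Ppbp, a platelet-derived ligand of Cxcr2, had 2.6 to 9.48 CPM against 4.41 to 12.1 CPM in saline and did not pass (log2 change -0.56, SE 0.40, adjusted p = 0.31), but was lower in batch 2 (-1.30, adjusted p = 0.0318). Ccrl2, which presents chemerin without signalling, had 7.07 to 11.9 CPM against 12.3 to 14.7 CPM in saline and fell by 0.54 on the log2 scale (SE 0.18, adjusted p = 0.0273). Of 37 genes of receptor signalling and migration 24 rose and 2 fell. Pik3cg, the lipid kinase switched on by G protein subunits, had a log2 change of 1.72 (SE 0.15, adjusted p = 1.35e-06), and the guanine exchange factor Vav1 one of 1.81 (SE 0.17, adjusted p = 2.69e-06). The pair that fell were Gnb1, a G protein beta subunit (-0.27), and Rasgrp2, a Rap activator (-0.63).

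Of 10 tested regulators of G protein signalling, which end receptor signals, 6 rose and 1 fell. For these lists too, the shares of all tested genes in batch 1 were 17.5% upward and 13.4% downward. Rgs1, a brake on chemokine receptors in lymphocytes, had 10.8 to 16.5 CPM in batch 1 bleomycin against 0.767 to 1.53 CPM in saline (log2 change 3.55, SE 0.30, adjusted p = 1.28e-06). Rgs16 had 6.51 to 18.4 CPM against 0.584 to 1.76 CPM in saline (log2 change 3.49, SE 0.40, adjusted p = 1.74e-05), and Rgs2 was the one that fell (-0.38). Of 22 tested inducers of chemokines, cytokines with their receptors and transcription factors, 17 rose and none fell. Relb, an NF-kB subunit, had a log2 change of 1.64 (SE 0.16, adjusted p = 2.8e-06) and Nfkb1 one of 0.68 (SE 0.08, adjusted p = 1.14e-05). Il6 had 805 counts in batch 1 bleomycin, 26 in batch 2 and 4 in saline, with 2.06 to 21.1 CPM in batch 1. Its ratio of scaled counts to saline was 174 in batch 1 and 16.8 in batch 2. The exact 95% intervals on read pairs, for counting error only, were wide, at 47.7 to 1438 and 3.8 to 153. Ifng, Il4 and Il13 were at or near 0 in every group, at most 0.332 CPM, and Il17a had no count. Of 13 other chemoattractant receptors 5 rose and none fell. The complement receptors C3ar1 and C5ar1 had log2 changes of 2.78 (SE 0.31, adjusted p = 3.31e-05) and 1.54 (SE 0.25, adjusted p = 0.000239).

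By position, 13 members lie on chromosome 11, 13 on chromosome 9 and 9 on chromosome 5, the homes of the CC ligand, receptor and CXC ligand clusters. On chromosome 11, 9 of 12 tested members rose, with a median log2 change of 2.35. On chromosome 5, 6 of 8 rose, with a median of 3.30, and on chromosome 9, 7 of 13 rose and 1 fell, with a median of 1.27. Over all chromosomes, 64.7% of the tested members and 17.5% of all tested genes rose. These counts are by chromosome and not by cluster, so they include genes such as the receptor Ccr7 on chromosome 11 and Ccl24 on chromosome 5. A difference between chromosomes was not tested. Exons of 10 of the 55 members overlap another gene, 2 of them on the same strand, and where strand was not used in counting, reads of such genes cannot be told apart. Besides Ackr1, Ackr4, Ccl25 and Cxcr5, these are Cxcl10 (with Art3), Cxcl16 (with Zmynd15), Cx3cr1 (with Gm33858), Ccl27a, Ccr9 and Xcl1.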

How the data were processed

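The authors deposited whole-number counts per gene symbol for 13 lung libraries, without normalization. Per the submitters' processing notes, cutadapt 4.4, STAR 2.7.10b, featureCounts 2.0.3, DESeq2 1.42.1 and build mm39 were used. What each was used for, the annotation release, molecular identifiers and strandedness in counting: not given in the sources used here. Of counts from 1 to 10, 78.4% to 86.1% were even, so a pair's mates seem to be counted one by one, and a count is not an independent molecule. The deposited normalized table was not used.

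Genes were filtered with filterByExpr over 3 groups (batch 1 bleomycin, batch 2 bleomycin, saline), scaled by TMM and tested with robust quasi-likelihood fits in edgeR 4.0.16 under R 4.3.3, with Benjamini-Hochberg adjustment over 20468 genes and a threshold of 0.05. Treatment and batch are contrasts of that fit. The biological coefficient of variation was 0.306. No columns were left unmapped. Exon lengths came from GENCODE M21, matched by symbol for all 55 members. Its build, like that of the promoter table, differs from mm39. Exon overlaps were read from the same annotation. No libraries of 1 group were duplicates (chi-square per degree of freedom 9.18 to 235 over 22 pairs). The fits were tested on simulated data.

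The members, pairs, gene lists and motifs were chosen with earlier results of these data known, and the NF-kB pattern was narrowed after a looser form matched 48.7% of promoters. Named members were the 8 largest rises and 4 largest falls (1 was found) among those that passed with a mean of at least 1 CPM, the 3 ligands and 3 receptors highest per length in saline, members that passed between batches, members of pairs, and up to 4 genes per list by lowest p. Other members were named after their values were seen. Alternatives were other size factors, DESeq2 1.42.0, limma-voom (limma 3.58.1), no low-count filter, batch 1 alone, no batch term, the replicate block, and each library left out. Values of 1 member, which is included in the counts over members, are not reported here.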

Additional observations from a re-analysis of the deposited data

Results flagged for a closer look

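The 15 leading members were read in 3 groups each, 45 in all, for a single library far from the rest of its group. Chance gives about 5% of such groups, and 4 were found. Cxcl13 stood at 51.3 CPM in batch 2 bleomycin replicate 1, where the other 3 libraries had 7.95 to 15.1 CPM. In saline, Cxcl13 stood at 1.47 CPM in replicate 5, where the other 4 had 3.28 to 3.94 CPM. Cxcl14 stood at 119.6 CPM in batch 2 bleomycin replicate 1, against 62.2 to 65.8 CPM in the other 3. Cx3cr1 stood at 31.6 CPM in batch 2 bleomycin replicate 4, against 23.3 to 24 CPM in the other 3. Replicate 1 of batch 2 was also the highest library of its group for 25 of the 51 tested members.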

How the results depend on the processing

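In batch 1 against saline, 34 of 51 tested members passed (33 higher, 1 lower), where 30.9% of all tested genes did. The alternatives gave 30 to 36, where 20% to 34.9% of all tested genes passed. With 1 library left out, the count was 32 to 36, with 31 to 35 higher and 1 to 2 lower, where 24.9% to 31.6% did. Batch 1 samples alone gave 30 of 48 tested, where 27.6% of all tested genes passed. Between bleomycin batches the count was 0, where 1.68% of all tested genes passed, against 2 in DESeq2 (1 higher, 1 lower), where 3.6% did. With 1 library left out it was 0 to 2 (0 to 1 higher, 0 to 1 lower), where 0.676% to 5.28% of all tested genes passed. In batch 2 against saline 32 passed (31 higher, 1 lower), where 28.9% of all tested genes did. Limma-voom gave 18 (18 higher, 0 lower), where 20.3% of all tested genes passed, and the cause was not tested. Leaving out 1 library gave 26 to 34 (25 to 32 higher, 1 to 2 lower), where 21.5% to 30.9% of all tested genes passed. Replicate numbers 1 to 4 are shared by batch 2 bleomycin and saline, but the deviations of same-numbered libraries correlated at -0.347 to -0.102, so the numbers do not pair them. On those 8 libraries the replicate block gave 24 of 43 tested (23 higher, 1 lower), where 25.3% of all tested genes passed. The same libraries without the block, a choice made after seeing the data, gave 29 (27 higher, 2 lower), where 30.8% did. Batch 1 bleomycin shares 1 number with saline, so no block was possible there. Of the values of single named members, 2 changed sign: Cxcl15, which never passed, with a log2 change of -0.08 without bleomycin replicate 5 and -0.02 without saline replicate 4, in a range of -0.08 to 0.25 with 1 library left out. Depth limits the members with few counts, and 4 were too low for the test.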
